A study of Homo sapiens with 9 samples.

Results

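The genes described here are 10 well-known genes of the endoplasmic reticulum (ER) folding machinery and of the XBP1 transcription programme: HSPA5, HSP90B1, DNAJB9, SDF2L1, PDIA4, CRELD2, XBP1, MANF, HERPUD1 and EDEM1. They were chosen by name, with earlier results of these data known, and found through the Ensembl IDs of the deposited tables. They are 10 of 62257 gene rows, each symbol matched 1 row, and 10 of 10 passed the expression filter that left 16947 genes for testing.

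Proteins that enter the secretory pathway fold in the ER with the help of Hsp70-type and Hsp90-type chaperones, their co-chaperones and enzymes that form disulphide bonds. When unfolded proteins build up, the sensors IRE1, PERK and ATF6 start the unfolded protein response. IRE1 cuts a short stretch out of XBP1 mRNA so that an active transcription factor is made, and XBP1 and ATF6 then raise transcription of chaperone genes and of genes for ER-associated degradation (ERAD), which returns misfolded proteins to the cytosol for destruction. HSPA5 is the gene most often read as a gauge of this response, and it is expressed at a high level in secretory and epithelial cells even without stress.

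A549, an established human lung adenocarcinoma cell line of epithelial origin, was grown for 96 h with apoptotic extracellular vesicles (apoEVs), membrane-bound particles shed by dying cells. The vesicles came either from cells killed with cisplatin, a DNA-damaging platinum drug (the group DDP_apoEV), or from cells killed with staurosporine, a broad kinase inhibitor (the group STS_apoEV), and control cells received phosphate-buffered saline. Each group has 3 libraries, 9 in all, made by mRNA sequencing. Which cells shed the vesicles, their dose, and whether libraries of 1 group come from separate cultures are not given in the labels, so p-values measure the spread between these libraries, which may be technical.

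The libraries held 15949255 to 16526399 counted reads with DDP_apoEV, 13799950 to 14816996 with STS_apoEV and 14356195 to 15492993 in control. Of the 10 markers of a lung epithelial line, the keratin genes KRT8 and KRT18 made up most of the signal. Their list summed to 6921 to 7513 CPM with DDP_apoEV and 7286 to 8742 CPM with STS_apoEV, against 11211 to 12264 CPM in control. CPM are read counts scaled to a common library size. The sum thus lay lower with both vesicle types, but not every gene of the list did. KRT8 averaged 3607, 4839 and 6471 CPM with DDP_apoEV, with STS_apoEV and in control, and KRT18 2249, 2252 and 4030 CPM. KRT7, by contrast, averaged 1273, 717 and 1156 CPM and KRT19 93.5, 146 and 114 CPM. The part of this list in the results below was not tested. The lung transcription factor gene NKX2-1 had 0 counts in both vesicle groups and a mean of 0.0697 CPM in control, and EPCAM, an epithelial adhesion gene, averaged 2.63, 1.65 and 3.58 CPM with DDP_apoEV, with STS_apoEV and in control. Leukocyte markers summed to 11.3 to 11.8, 14.3 to 20.04 and 8.71 to 13.0 CPM in the same order, nearly all of it CD14, and the pan-leukocyte gene PTPRC had 0 to 3 counts in a library. Fibroblast, endothelial and erythroid markers summed to at most 3.85, 4.42 and 0.607 CPM in any library.

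Several of these genes are known to share a promoter element, so the matches to it are shown before the values. The ER stress response element (ERSE) is the site of ATF6 and XBP1 with the general factor NF-Y. It was searched as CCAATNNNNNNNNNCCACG on both strands of the 250 bases upstream of 1 RefSeq start per gene symbol (GRCh38.p14). Any other starts of a gene were not searched. It matched in 3 of the 10 genes and in 22 of 27305 promoters of the same length (0.0806%). The HSPA5 window, chr9:125241344-125241593 on the minus strand, carried 1 match at positions −66 to −48 from the start, in capitals here.
HSPA5: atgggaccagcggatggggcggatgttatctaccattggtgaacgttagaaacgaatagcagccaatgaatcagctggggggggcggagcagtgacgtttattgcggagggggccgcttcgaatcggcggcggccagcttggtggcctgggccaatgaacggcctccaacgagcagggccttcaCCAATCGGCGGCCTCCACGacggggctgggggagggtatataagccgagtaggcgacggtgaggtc

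HSP90B1 carried 2 matches, at positions −194 to −176 from its RefSeq start and, on the other strand, at −89 to −71. CRELD2 carried 1 on the other strand, at −80 to −62. The compact form of the element, ERSE-II, was searched as ATTGGNCCACG on both strands and matched in HERPUD1 at −117 to −107 and, on the other strand, in SDF2L1 at −188 to −178, against 16 of 27305 promoters (0.0586%). The matched sites, each written 5′ to 3′ on the strand of its gene with the whole match in capitals, show the shared ends of the element and the spacer that differs between genes.
HSP90B1 distal: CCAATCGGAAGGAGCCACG
HSP90B1 proximal: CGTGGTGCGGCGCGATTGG
CRELD2: CGTGGCGAACTCGGATTGG
HERPUD1: ATTGGGCCACG
SDF2L1: CGTGGACCAAT

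Another motif, the core TGACGTG of the unfolded protein response element, matched in 0 of the 10 windows and in 457 of 27305 promoters (1.67%). XBP1, DNAJB9, PDIA4, MANF and EDEM1 had no match to any of the 3 motifs in these windows. The RefSeq start lay 3353 bases inside the deposited span of PDIA4, 520 bases inside that of XBP1, 467 bases inside that of CRELD2 and 303 bases inside that of HSP90B1, so for these genes the window is not the sequence upstream of the deposited gene. A match is a description of letters, and binding was not measured.

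The deposited table also gives levels per length, as FPKM, in which the length of the gene model and the library total are divided out. In control cells HSPA5 stood highest at 94.4 ± 2.30 FPKM (SD, n = 3, as for all values after ± except SEs), followed by PDIA4 at 69.4 ± 4.22 FPKM and HSP90B1 at 67.6 ± 0.265 FPKM, whose libraries overlapped. XBP1 had 40.0 ± 1.51 FPKM. MANF at 29.2 ± 1.72 FPKM and SDF2L1 at 28.2 ± 1.49 FPKM overlapped, and so did HERPUD1 at 10.97 ± 0.611 FPKM and EDEM1 at 10.4 ± 0.630 FPKM. DNAJB9 lay between these pairs at 15.4 ± 0.931 FPKM, and CRELD2 was lowest at 4.21 ± 0.401 FPKM. CRELD2 was last in all 3 groups and HSPA5 first in all 3, although with STS_apoEV the libraries of HSPA5 overlapped those of HSP90B1, which came next. XBP1 ranked behind SDF2L1 and MANF with DDP_apoEV, where the libraries of these neighbours overlapped, and next after PDIA4 with STS_apoEV, where it overlapped SDF2L1.

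**Figure D1:**
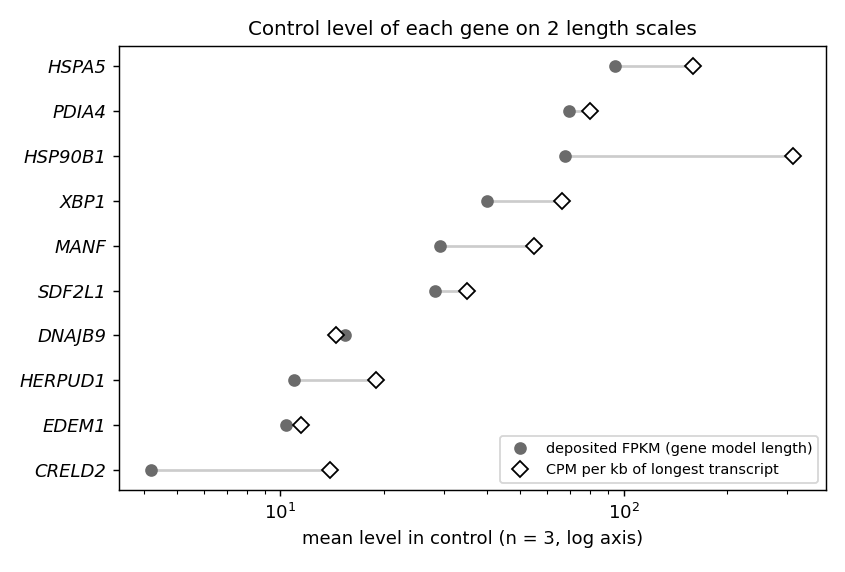
Mean control level of each of the 10 genes (n = 3 libraries) on a log axis, as deposited FPKM (filled circles) and as CPM per kilobase of the longest protein-coding transcript (open diamonds). HSPA5 is first on the deposited scale at 94.4 FPKM and HSP90B1 is first on the transcript scale at 313 CPM per kb.

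This order depends on the length that is divided out. The deposited gene model of HSP90B1 is 13092 bases long, against 2858 bases for its longest protein-coding transcript in GENCODE v29, and that of HSPA5 is 6530 bases against 3908. Per kilobase of transcript, a scale chosen after the data were seen, HSP90B1 ranked first in every group, at 302 ± 8.55 CPM per kb with DDP_apoEV, 356 ± 22.6 with STS_apoEV and 313 ± 2.87 in control. HSPA5 then ranked second, at 198 ± 11.2, 142 ± 2.70 and 159 ± 4.04 CPM per kb in the same groups. Differences between groups for 1 gene are not affected by its length.

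The question the design poses for these genes is whether cells given vesicles differ from control cells, and whether the 2 vesicle types differ. The set did not move as a block in any of the 3 comparisons, and the genes that changed did so by less than 1.5-fold. With DDP_apoEV, HSPA5 rose and XBP1 and DNAJB9 fell. With STS_apoEV, MANF and XBP1 fell and HSP90B1 and DNAJB9 rose, the last 2 by calls that most alternative settings lost. Between the vesicle types 7 of the 10 genes differed, with HSPA5, MANF and SDF2L1 lower and HSP90B1, XBP1, DNAJB9 and EDEM1 higher after STS_apoEV. Of these calls that of SDF2L1, whose libraries overlapped between the vesicle types, was lost in 8 of 15 alternatives.

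In numbers, edgeR's quasi-likelihood test with Benjamini-Hochberg adjustment over all 16947 genes called 3 of 10 genes with DDP_apoEV against control, 1 higher and 2 lower, where it called 15.5% of all genes tested (7.16% higher, 8.32% lower). It called 4 of 10 with STS_apoEV against control, 2 in each direction, where it called 32.8% of all genes (15.9% higher, 16.8% lower). Between STS_apoEV and DDP_apoEV it called 7 of 10, 4 higher and 3 lower, where it called 39.7% of all genes (20.2% higher, 19.5% lower). The median log2 fold change of the 10 genes was −0.04, −0.08 and 0.09 in the 3 comparisons, and that of all genes −0.0033, 0.01 and 0.03. The libraries of the 2 groups did not overlap in CPM for 5, 5 and 7 of the 10 genes, against 32.2%, 43.3% and 47.5% of all genes. The comparisons with control share the control libraries, and all 3 comparisons share libraries in pairs, so their values stand side by side and are not independent of each other. In RNA from whole cultures, fewer cells with a transcript and less of it per cell cannot be told apart, nor can RNA carried by the vesicles be told apart from RNA of the cells.

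**Figure D2:**
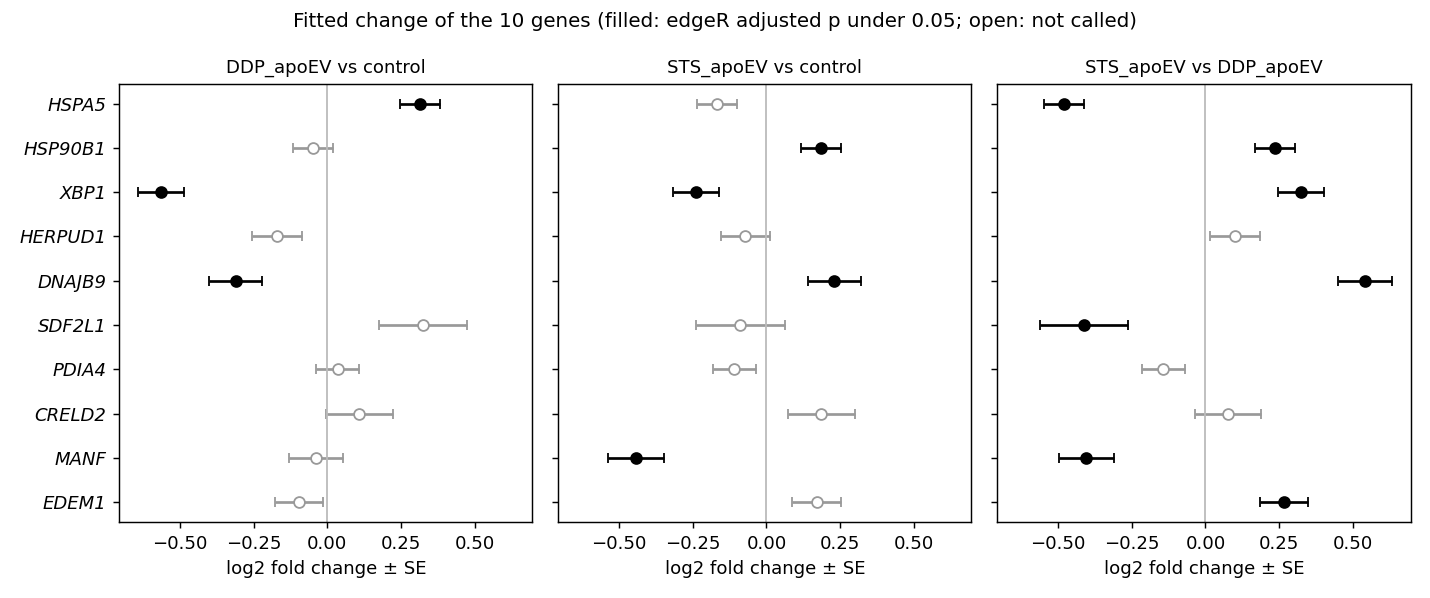
Log2 fold change of each of the 10 genes (points) with its SE (bars) in 3 panels, DDP_apoEV against control, STS_apoEV against control and STS_apoEV against DDP_apoEV, filled where the adjusted p of edgeR's test is under 0.05. HSPA5 lies at 0.31, −0.17 and −0.48 and XBP1 at −0.56, −0.24 and 0.33.

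HSPA5 encodes BiP, the Hsp70 chaperone of the ER lumen and a regulator of the stress sensors (ENSG00000044574, chr9:125234853-125241382, minus strand, hg38 as deposited). It had 795, 803 and 723 CPM with DDP_apoEV, 546, 552 and 567 CPM with STS_apoEV and 639.7, 608 and 620.4 CPM in control. All DDP_apoEV libraries lay above, and all STS_apoEV libraries below, every control library. The rise with DDP_apoEV was 1.24-fold (log2 0.31, SE 0.0680, adjusted p = 0.00117, edgeR). With STS_apoEV the log2 fold change was −0.17 (SE 0.0681, adjusted p = 0.0593, edgeR), which missed the threshold, although DESeq2 (adjusted p = 0.00923), limma on log2(FPKM + 1) (0.0390) and edgeR with genes kept at 1 CPM or more in 3 libraries (0.0445) called it lower. The direct comparison of STS_apoEV with DDP_apoEV gave 1.39-fold lower levels (log2 −0.48, SE 0.0681, adjusted p = 7.82e-07, edgeR). This difference and the rise with DDP_apoEV were called under each of the 15 alternatives tried.

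HSP90B1 encodes GRP94, the Hsp90 chaperone of the ER, which folds integrins and Toll-like receptors among others (ENSG00000166598, chr12:103930107-103953931, plus strand). It had 870.5, 836 and 884 CPM with DDP_apoEV, 975.0, 984 and 1091 CPM with STS_apoEV and 893, 886 and 902 CPM in control. It thus ran against HSPA5, lowest with DDP_apoEV and highest with STS_apoEV, with no overlap between any pair of groups. With DDP_apoEV it was not called (log2 −0.05, SE 0.0680, adjusted p = 0.701, edgeR). The rise with STS_apoEV was 1.14-fold over control (log2 0.19, adjusted p = 0.0332, edgeR). That call was lost in 9 of 15 alternatives, among them without replicate 3 of STS_apoEV (adjusted p = 0.163) and without control replicate 1 (0.122), 2 (0.146) or 3 (0.105). Against DDP_apoEV the level with STS_apoEV was 1.18-fold higher (log2 0.24, adjusted p = 0.00572, edgeR), a call lost in 1 of 15 alternatives, without replicate 2 of DDP_apoEV (adjusted p = 0.0514). An opposite-strand neighbour that overlaps HSP90B1, UQCC6, had 195 to 303 counts in a library, against at least 12952 for HSP90B1.

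**Figure D3:**
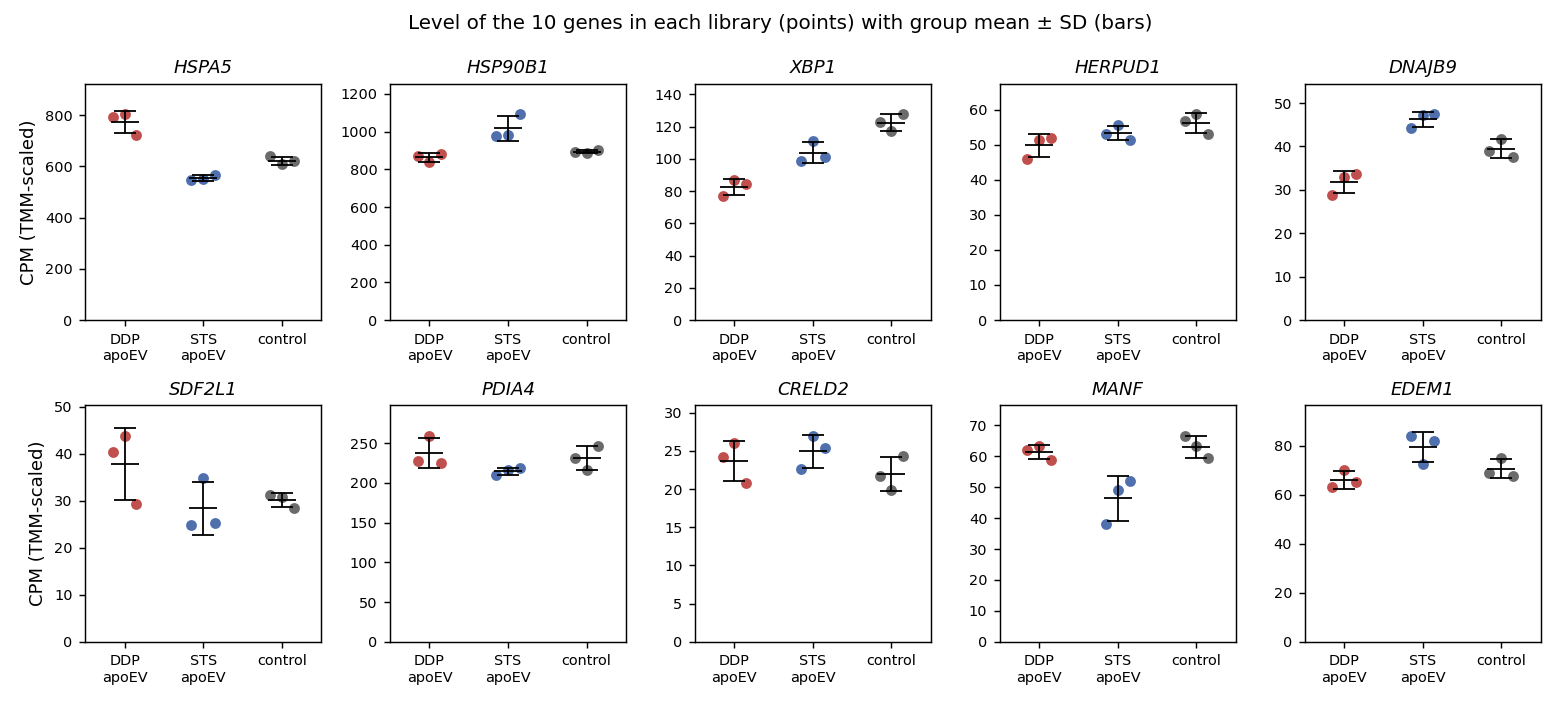
CPM of the 10 genes in each library (points) with the group mean and SD (bars), 1 panel per gene, for DDP_apoEV, STS_apoEV and control with 3 libraries each. HSPA5 sits at 723 to 803 CPM with DDP_apoEV, above both other groups, and XBP1 at 77.2 to 86.8 CPM, below both.

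DNAJB9 and SDF2L1 work with BiP. DNAJB9 encodes ERdj4, a J-domain co-chaperone that is a strong XBP1 target in mouse cells and holds IRE1 in its inactive form (ENSG00000128590, chr7:108569867-108574850, plus strand). It had 28.9, 32.9 and 33.5 CPM with DDP_apoEV, 44.2, 47.2 and 47.4 CPM with STS_apoEV and 39.0, 41.8 and 37.5 CPM in control, 3 groups that did not overlap. It fell 1.24-fold with DDP_apoEV (log2 −0.31, SE 0.0910, adjusted p = 0.0161, edgeR), a call lost without replicate 1 of DDP_apoEV (adjusted p = 0.125) or without control replicate 2 (0.0889). Its rise with STS_apoEV over control was 1.17-fold (log2 0.23, adjusted p = 0.0459, edgeR) and was lost in 13 of 15 alternatives, including each of the 6 that leave out a library (adjusted p between 0.0577 and 0.207). The difference between the vesicle types was the largest of the 10 genes, 1.46-fold higher with STS_apoEV (log2 0.54, SE 0.0904, adjusted p = 1.05e-05, edgeR), and was called under each of the 15 alternatives.

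SDF2L1, which encodes a partner of the J-domain protein ERdj3, varied most of the 10 genes in both vesicle groups, with a coefficient of variation of 20.1% with DDP_apoEV and 19.996% with STS_apoEV, against 4.85% in control. It had 40.5, 43.8 and 29.2 CPM with DDP_apoEV, 24.9, 34.9 and 25.3 CPM with STS_apoEV and 31.2, 30.8 and 28.5 CPM in control. Both vesicle groups overlapped control, and replicate 3 of DDP_apoEV lay apart from the other two. With DDP_apoEV the log2 fold change of 0.32 (SE 0.149) was not called (adjusted p = 0.176, edgeR) but was 0.48 and called without that library (adjusted p = 0.00483). SDF2L1 was called 1.33-fold lower with STS_apoEV than with DDP_apoEV (log2 −0.41, adjusted p = 0.0412, edgeR). That call was lost in 8 of 15 alternatives, among them without replicate 1 (adjusted p = 0.127) or 2 (0.117) of DDP_apoEV and without replicate 1 (0.133) or 3 (0.158) of STS_apoEV.

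Of the 2 genes tied to disulphide bonds, neither was called in any comparison. PDIA4, which encodes the disulphide isomerase ERp72, had 228, 259 and 224 CPM with DDP_apoEV, 209.7, 216 and 218 CPM with STS_apoEV and 231, 216 and 247 CPM in control. Its log2 fold changes were 0.03 with DDP_apoEV and −0.11 with STS_apoEV against control, and −0.14 between the vesicle types (edgeR adjusted p = 0.817, 0.282 and 0.127), and the first of these changed sign without replicate 2 of DDP_apoEV (−0.03) or without control replicate 2 (−0.01). CRELD2, a secreted ER stress protein with thioredoxin-like motifs, averaged 23.7 ± 2.60, 25.0 ± 2.16 and 21.95 ± 2.21 CPM with DDP_apoEV, with STS_apoEV and in control, and its libraries overlapped in every comparison. Its log2 fold changes were 0.11, 0.19 and 0.08 (edgeR adjusted p = 0.588, 0.220 and 0.626). ALG12, on the opposite strand and overlapping CRELD2, had 99 to 140 counts in a library beside 291 or more for CRELD2, and the labels do not state whether strand was used in counting.

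XBP1 encodes the transcription factor itself (ENSG00000100219, chr22:28794555-28800597, minus strand). Its mRNA carries the stretch that IRE1 removes, which lies in exon 4 of the transcript XBP1-201 (chr22:28796047-28796192, minus strand, GENCODE v29). The capitals mark the 26 bases at 28796122 to 28796147 that are absent from another annotated transcript of the gene. Because the letters at both ends repeat, 7 placements of a 26-base stretch leave the same joined mRNA, of which the annotated one lies furthest downstream, so the capitals do not give the exact cut sites. The reads were deposited as 1 count per gene, so the levels below do not tell the cut form from the uncut form.
XBP1 exon 4: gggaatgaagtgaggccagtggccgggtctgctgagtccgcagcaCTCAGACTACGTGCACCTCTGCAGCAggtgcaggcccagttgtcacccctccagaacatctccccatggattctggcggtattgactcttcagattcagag

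XBP1 had 77.2, 86.8 and 84.4 CPM with DDP_apoEV, 98.9, 111 and 101.2 CPM with STS_apoEV and 123, 117 and 128 CPM in control. Every library given vesicles lay below every control library, and those given DDP_apoEV lay lowest. The fall with DDP_apoEV was 1.48-fold (log2 −0.56, SE 0.0779, adjusted p = 1.91e-06, edgeR), the largest of the 10 genes against control, and held under each of the 15 alternatives. With STS_apoEV the fall was 1.18-fold (log2 −0.24, SE 0.0775, adjusted p = 0.0162, edgeR), and it missed the threshold without replicate 1 of STS_apoEV (adjusted p = 0.0641) or without control replicate 3 (0.0553). XBP1 was 1.25-fold higher with STS_apoEV than with DDP_apoEV (log2 0.33, adjusted p = 0.00110, edgeR), a call that held under each of the 15 alternatives. A processed copy, XBP1P1, had 1 to 10 counts in a library, against 1235 or more for XBP1.

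MANF encodes a secreted ER protein that binds BiP and protects cells under stress (ENSG00000145050, chr3:51385291-51389397, plus strand). It had 62.1, 63.4 and 59.0 CPM with DDP_apoEV, 38.1, 49.2 and 51.9 CPM with STS_apoEV and 66.5, 63.4 and 59.5 CPM in control. The STS_apoEV libraries lay below all the others, and replicate 1 lowest, while DDP_apoEV overlapped control. MANF fell 1.36-fold with STS_apoEV (log2 −0.44, SE 0.0939, adjusted p = 3.51e-04, edgeR) and was 1.32-fold lower with STS_apoEV than with DDP_apoEV (log2 −0.40, adjusted p = 7.49e-04, edgeR), both called under each of the 15 alternatives. With DDP_apoEV its log2 fold change was −0.04 (adjusted p = 0.840, edgeR).

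Of the 2 genes of ERAD, neither was called against control and EDEM1 was called between the vesicle types. EDEM1, a mannosidase-like protein that marks misfolded glycoproteins for removal, had 63.0, 70.1 and 65.1 CPM with DDP_apoEV, 83.9, 72.6 and 82.0 CPM with STS_apoEV and 69.0, 75.1 and 67.7 CPM in control. The vesicle groups did not overlap, with 1.20-fold higher levels after STS_apoEV than after DDP_apoEV (log2 0.27, adjusted p = 0.00953, edgeR). That call was lost without replicate 1 of DDP_apoEV (adjusted p = 0.0595) or replicate 1 of STS_apoEV (0.0711). Against control its log2 fold changes were −0.10 with DDP_apoEV and 0.17 with STS_apoEV (edgeR adjusted p = 0.498 and 0.113), and the second was called without replicate 2 of STS_apoEV (0.0412). HERPUD1, a membrane scaffold of the HRD1 ubiquitin ligase, had 46.0, 51.4 and 52.0 CPM with DDP_apoEV, 53.2, 55.5 and 51.5 CPM with STS_apoEV and 56.6, 58.6 and 53.0 CPM in control. The DDP_apoEV libraries lay just below all control libraries, but no comparison was called (log2 −0.17, −0.07 and 0.10, edgeR adjusted p = 0.179, 0.560 and 0.370).

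The summed level of the 10 genes was 2176 to 2273 CPM with DDP_apoEV, 2097 to 2261 CPM with STS_apoEV and 2117 to 2170.4 CPM in control. Every DDP_apoEV library lay above every control library, though the lowest, at 2176 CPM, was close to the highest control library, at 2170.4 CPM. STS_apoEV overlapped both other groups. HSPA5 and HSP90B1 made up most of the sum, at means of 774 and 864 CPM with DDP_apoEV and 623 and 894 CPM in control. Only HSPA5 was called higher with DDP_apoEV, so the sum does not show a rise of the set. Ratios between genes within a library do not depend on its depth and were picked after the values were seen, so they carry no test. The ratio of HSPA5 to HSP90B1 in FPKM was 1.83, 1.93 and 1.64 with DDP_apoEV, 1.12, 1.12 and 1.04 with STS_apoEV and 1.44, 1.38 and 1.38 in control. HSPA5 and HSP90B1 ran in opposite orders without overlap, as given above, so the 3 groups of their ratio could not overlap. The balance between the 2 major chaperone mRNAs thus lay furthest toward HSPA5 with DDP_apoEV. The ratio of HSPA5 to XBP1 averaged 4.35 ± 0.402 with DDP_apoEV, against 2.49 ± 0.160 with STS_apoEV and 2.36 ± 0.0898 in control, where the last 2 overlapped. For HSPA5 over DNAJB9 the means were 9.52 ± 1.16, 4.66 ± 0.127 and 6.15 ± 0.430 with DDP_apoEV, with STS_apoEV and in control. The lack of overlap here again follows from the opposite orders of the 2 genes. Among the libraries, replicate 2 of DDP_apoEV had 9 of 10 genes above its group mean and replicate 1 of STS_apoEV 9 of 10 below.

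**Figure D4:**
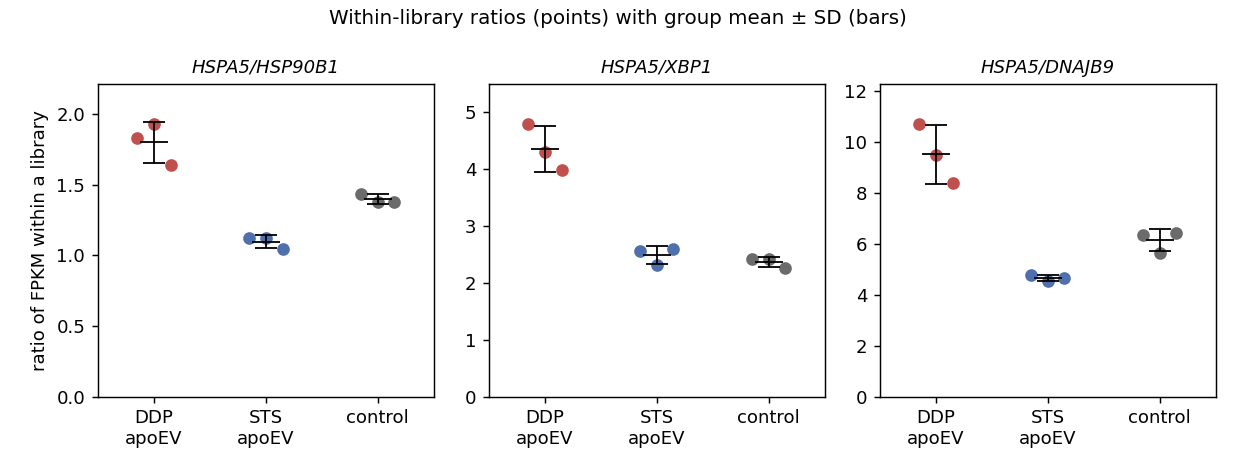
Ratio of 2 deposited FPKM values within each library (points) with the group mean and SD (bars) for HSPA5 over HSP90B1, HSPA5 over XBP1 and HSPA5 over DNAJB9, 3 libraries per group. All 3 ratios are highest with DDP_apoEV, at means of 1.80, 4.35 and 9.52.

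The rest of the ER pathway was read from 9 lists of genes, each given by its count of called genes. With DDP_apoEV little of it was called. Most lists had a share of called genes below the 15.5% of all genes. Among them were Hsp70 and Hsp90 cofactors (0 of 11), lectin chaperones, disulphide and prolyl isomerases and related enzymes (1 of 24) and ERAD (1 of 26). Translocon and signal peptidase (2 of 23), oligosaccharyltransferase (1 of 12) and COPII export (1 of 19) lay below it too. An unadjusted edgeR p under 0.05 was found for 1 of 11 genes in the cofactor list, where DESeq2 and limma called 0 as well. The counts by unadjusted p were 5 of 24 (lectin chaperones and isomerases), 6 of 26 (ERAD), 3 of 23 (translocon) and 3 of 12 (oligosaccharyltransferase). They were 4 of 19 (COPII export), 4 of 16 (sensors and transducers), 4 of 11 (PERK branch) and 2 of 7 (autophagy receptors). The sensor and transducer list, with 1 of 16 called, also lay below the 15.5%. The PERK-branch list, with 2 of 11, lay near it. The receptors for autophagy of the ER lay above it, with 2 of 7, though limma called 1 of 6. With STS_apoEV against control, 8 of 24 lectin chaperone and isomerase genes were higher and 2 lower, where 15.9% of all genes were higher and 16.8% lower. The other lists had 6 higher and 1 lower of 26 (ERAD), 2 and 1 of 11 (cofactors), 4 and 2 of 16 (sensors and transducers), 2 and 3 of 11 (PERK branch), 3 and 3 of 23 (translocon), 3 and 1 of 12 (oligosaccharyltransferase), 4 and 4 of 19 (COPII export) and 2 higher of 7 (autophagy receptors). Among the lectin chaperone and isomerase genes were QSOX1, a sulphydryl oxidase (38.5 ± 3.02 CPM against 27.3 ± 4.02 in control, log2 0.50, edgeR adjusted p = 4.61e-04), and PPIB, a prolyl isomerase (219 ± 20.3 CPM against 173 ± 14.1 in control, log2 0.34, edgeR adjusted p = 8.38e-04). Among the ERAD genes were the mannosidase gene MAN1B1 (log2 0.50) and ERLEC1, a lectin (log2 0.36). Between STS_apoEV and DDP_apoEV, 8 of 26 ERAD genes were higher and 3 lower, 7 and 2 of 24 lectin chaperone and isomerase genes, and 5 and 1 of 11 PERK-branch genes, against 20.2% higher and 19.5% lower among all genes. The counts of the others were 4 and 1 of 11 (cofactors), 3 and 2 of 16 (sensors and transducers), 2 and 3 of 23 (translocon), 4 and 1 of 12 (oligosaccharyltransferase), 4 and 5 of 19 (COPII export) and 4 higher of 7 (autophagy receptors). The list medians of log2 fold change ran from −0.46 (PERK branch) to 0.07 (COPII export) with DDP_apoEV, where that of all genes was −0.0033, from −0.0065 (PERK branch) to 0.16 (cofactors) with STS_apoEV, where it was 0.01, and from 0.0038 (COPII export) to 0.40 (PERK branch) between the vesicle types, where it was 0.03.

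Calnexin, a membrane-bound lectin chaperone encoded by CANX, was lower in both vesicle groups, at 29.4 ± 2.21 CPM with DDP_apoEV and 31.8 ± 0.957 CPM with STS_apoEV, against 38.3 ± 4.06 CPM in control (log2 −0.38 and −0.27, edgeR adjusted p = 0.00547 and 0.0312). The row of CANX held 431 to 627 counts in a library, few for a gene that is abundant in most cells, and the cause was not tested. The called cofactors of smallest p in each direction with STS_apoEV were SIL1 and DNAJB11. SIL1, the nucleotide exchange factor of BiP, had 39.0 ± 2.55 CPM against 28.3 ± 3.58 CPM in control (log2 0.47, edgeR adjusted p = 3.80e-04). DNAJB11, the J-domain protein ERdj3, had 50.2 ± 0.820 CPM against 65.8 ± 2.54 CPM in control (log2 −0.39, edgeR adjusted p = 2.53e-04). TRAM1, which helps proteins cross the ER membrane, fell with both vesicle types, to 518 ± 28.4 CPM with DDP_apoEV and 501 ± 36.1 CPM with STS_apoEV, against 832 ± 80.1 CPM in control (log2 −0.68 and −0.73, edgeR adjusted p = 3.36e-08 and 3.07e-09). Some ER genes had almost no reads in the deposited table. HYOU1, a large ER chaperone gene that most cells express, had 0 to 1 counts in a library and could not be tested, while a row of like span and strand on a patch contig of the genome, at the same position, had 52 to 205. None of the 10 genes had such a row.

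ERN1, which encodes IRE1, the enzyme that cuts XBP1 mRNA, averaged 44.8 ± 5.13 CPM with STS_apoEV, against 18.9 ± 1.08 CPM with DDP_apoEV and 21.6 ± 2.66 CPM in control. It was 2.07-fold higher with STS_apoEV than in control (log2 1.05, edgeR adjusted p = 1.82e-09) and 2.36-fold higher than with DDP_apoEV (log2 1.24, adjusted p = 4.06e-11), while DDP_apoEV against control was not called (log2 −0.19, adjusted p = 0.275). The adaptor gene TRAF2, which binds IRE1, was the 1 of 16 sensor and transducer genes called with DDP_apoEV, at 60.3 ± 4.77 CPM against 42.7 ± 3.73 CPM in control (log2 0.50, edgeR adjusted p = 1.02e-04). With STS_apoEV 4 of 16 were higher and 2 lower by edgeR, against 15.9% and 16.8% of all genes, and 1 higher and 2 lower by DESeq2.

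Of 11 tested PERK-branch genes, 2 fell with DDP_apoEV, DDIT4, an inhibitor of mTORC1 signalling (70.5 ± 9.22 CPM against 107 ± 4.97 CPM in control, log2 −0.59, edgeR adjusted p = 3.02e-06), and the transcription factor gene ATF3 (3.52 ± 0.516 CPM against 6.48 ± 0.899 CPM in control, log2 −0.88, adjusted p = 0.00184). With STS_apoEV 2 of 11 rose and 3 fell, against 15.9% and 16.8% of all genes. The 2 that rose were PPP1R15A, whose product GADD34 restores translation after stress (56.2 ± 2.79 CPM against 37.0 ± 6.501 CPM in control, log2 0.60, edgeR adjusted p = 3.62e-05), and CEBPB (102 ± 4.25 CPM against 67.0 ± 6.37 CPM in control, log2 0.60, adjusted p = 0.0434). Those that fell were VLDLR, a lipoprotein receptor gene (16.9 ± 0.947 CPM against 21.3 ± 0.810 CPM in control, log2 −0.33, edgeR adjusted p = 0.0227), the pseudokinase gene TRIB3 (70.1 ± 1.98 CPM against 91.7 ± 10.7 CPM in control, log2 −0.39, adjusted p = 0.0464) and NUPR1, a small stress-induced regulator of transcription named after its values were seen (0.787 ± 0.351 CPM against 2.28 ± 0.673 CPM in control, log2 −1.52, adjusted p = 0.0144).

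Genes of protein export and of ER turnover were called in both directions. Among COPII export genes, 4 of 19 were higher and 4 lower with STS_apoEV, against 15.9% and 16.8% of all genes. KDELR3, a receptor that returns escaped chaperones to the ER, had 31.3 ± 3.19 CPM with STS_apoEV against 21.6 ± 1.64 CPM in control (log2 0.53, edgeR adjusted p = 1.68e-04), while SEC23B, a coat subunit, had 134 ± 4.98 CPM against 177 ± 3.90 CPM in control (log2 −0.40, adjusted p = 3.76e-05). CCPG1, a receptor for the autophagy of ER, went in opposite directions with the 2 vesicle types. It averaged 45.7 ± 1.84 CPM with DDP_apoEV and 103 ± 5.63 CPM with STS_apoEV, against 65.7 ± 4.74 CPM in control (log2 −0.53 and 0.65, edgeR adjusted p = 1.78e-05 and 1.03e-07), and STS_apoEV against DDP_apoEV gave 2.26-fold (log2 1.17, adjusted p = 2.99e-13). CALCOCO1, another such receptor, had 41.4 ± 3.04 CPM with STS_apoEV, against 19.2 ± 2.81 CPM with DDP_apoEV and 21.5 ± 3.42 CPM in control (STS_apoEV against control log2 0.94, edgeR adjusted p = 1.31e-07).

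**Figure D5:**
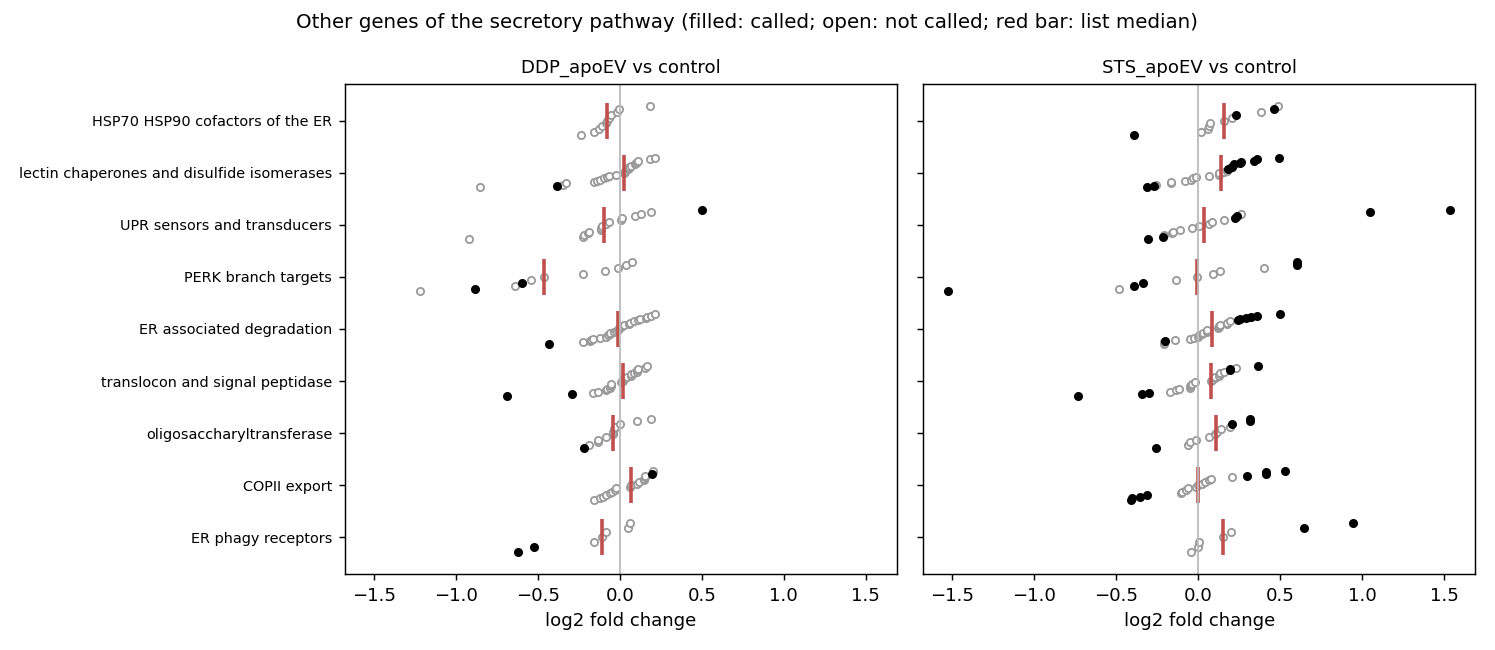
Log2 fold change of every tested gene (points) of 9 ER lists, with DDP_apoEV against control on the left and STS_apoEV against control on the right, filled where edgeR's adjusted p is under 0.05, and the median of each list as a red bar. With DDP_apoEV each list has at most 2 filled points, and with STS_apoEV the list of lectin chaperones and isomerases has 8 to the right of 0 and 2 to the left.

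The profile of HSPA5 over the 9 libraries was compared with those of 8033 genes outside the set that had a mean log2 CPM of at least 4. The genes that lay closest to it were no ER chaperones. By the root-mean-square difference of centred log2 CPM they were SLBP, which encodes the histone mRNA stem-loop binding protein (0.0333), SNRNP200, a spliceosome helicase gene (0.0443), UQCC1, an assembly factor of mitochondrial complex III (0.0512), PLIN3, a lipid droplet coat gene (0.0514), and PMPCA, a mitochondrial processing peptidase subunit (0.0529), against a median of 0.238. Of the other 9 genes of the set, which were left out of this ranking, PDIA4 was nearest to HSPA5 at 0.158. SDF2L1 and MANF followed at 0.175 and 0.186. CRELD2 (0.248), HERPUD1 (0.270), HSP90B1 (0.298) and EDEM1 (0.316) lay above the median of 0.238, and XBP1 at 0.405 and DNAJB9 at 0.431 were farthest.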

How the data were processed

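Per the labels' protocols, TRIzol was used for extraction and NEBNext Ultra for library construction. The tools named in the submitters' processing notes, without roles or strand setting, are featureCounts 1.5.0-p3, StringTie 1.3.3b, HISAT2 2.0.5 and limma, with the build hg38. The authors deposited whole-number read counts per gene and FPKM values for 62257 rows and 9 libraries. The deposited FPKM differed from count over length and total by a constant in each library (0.944 to 1.01), of origin not given in the sources used here. IDs were matched to symbols (61399 of 61552), and rows of unannotated transcripts held 0.313% to 0.357% of counts.

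Counts were tested with edgeR 4.0.16 (R 4.3.3), robust quasi-likelihood, TMM scaling, the default expression filter, all 9 libraries, no covariates and a Benjamini-Hochberg threshold of 0.05 over 16947 genes. Fold changes are the first-named group over the second, and an SE is the log2 fold change over the square root of F. CPM uses TMM-scaled library sizes, except that the values of the cell type markers use unscaled library totals. The biological coefficient of variation was 0.0992. No library pair agreed within counting noise. The script was tested on simulated counts of the 2 compared groups alone. Of 100 genes changed 1.5-fold it recovered 68, 67 and 60 in the 3 comparisons, and of 100 changed 2-fold 90, 92 and 92. False calls made up 8.67% of the calls for DDP_apoEV against control, 3.64% for STS_apoEV against control and 3.18% between the vesicle types.

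The 10 genes and all lists were chosen with earlier results of these data known. Named list genes are the 2 called genes of smallest p per list, comparison and direction with a mean log2 CPM of at least 1, of which a part is given; HYOU1 and some values of ERN1 are outside this rule, picked once their values had been seen. Likeness used log2 CPM with a prior count of 2. Promoter windows are RefSeq's (GRCh38.p14), and transcript lengths and gene types are from GENCODE v29. Alternatives were upper-quartile and median-of-ratios factors, genes unfiltered or kept at 1 CPM in 3 libraries, DESeq2 1.42.0, limma 3.58.1 on log2(FPKM + 1) and log2(FPKM + 0.1), a replicate block, a fit of 2 groups, and leaving out each library. Protein sequences were not used here.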

Additional observations from a re-analysis of the deposited data

How the results depend on the processing

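Over 30 log2 fold changes of the 10 genes and 15 alternatives each, 402 of 450 values kept their direction and side of the threshold, 37 lost the call, 7 gained it and 4 changed sign. No sign changed under another scaling. Called without exception were HSPA5 and XBP1 with DDP_apoEV, MANF with STS_apoEV, and HSPA5, XBP1, DNAJB9 and MANF between the vesicle types. The sign changes came from leaving out 1 library, over which the log2 fold change of PDIA4 with DDP_apoEV ran from −0.032 to 0.081, that of MANF with DDP_apoEV from −0.082 to 0.0015 and that of CRELD2 between the vesicle types from −0.0096 to 0.13, none of them called.

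Of the 10 genes, 4 were called with STS_apoEV against control, but 2 without a filter on low counts, 2 with the replicate block, and 1 to 4 when each library was left out in turn. All genes called with DDP_apoEV numbered 2623, and 1617 with limma on log2(FPKM + 1) and 1638 on log2(FPKM + 0.1), where fewer genes, 12647, were tested. The level of HSPA5 over HSP90B1 per kilobase was 1.80, 1.09 and 1.40 with DDP_apoEV, with STS_apoEV and in control, and 0.655, 0.399 and 0.510 with the longest transcript as length, which reverses their order. In the pathway lists with STS_apoEV against control, limma on log2(FPKM + 1) called 6 of 22 lectin chaperone and isomerase genes, where edgeR called 10 of 24. It called 2 of 9 PERK-branch genes, 2 higher and 0 lower, where edgeR called 5 of 11. DESeq2 called 3 sensors and transducers where edgeR called 6. Between the vesicle types, DESeq2 called 1 cofactor gene higher and 1 lower, where edgeR called 4 and 1. Limma on log2(FPKM + 1) called 1 oligosaccharyltransferase gene higher and 1 lower, where edgeR called 4 and 1. It called 2 of 6 autophagy receptors, where edgeR called 4 of 7. The counts of called translocon and COPII export genes were the same with edgeR, DESeq2 and limma. CANX with DDP_apoEV was called by edgeR but not by limma. Causes of the other changes were not tested. Same-numbered libraries did not deviate together (correlations −0.0847 to 0.0547), and the replicate block gave 2359, 5297 and 6429 called genes in the 3 comparisons, with 3, 2 and 7 of the 10 genes. The calls that were lost had fold changes of 1.14 to 1.33. With DDP_apoEV against control the SE of SDF2L1 was 0.149, against 0.113 for CRELD2, which had fewer counts, and 0.0680 for HSPA5. What set these SEs was not tested.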
